A study of Mus musculus with 2 samples.

Results

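The genes described here are mouse histone genes, 81 of the 33696 features of 1 single-cell library. They were chosen by symbol alone, as the H1f, H2ac, H2bc, H3c and H4c series and the H2ax, H2az, H2aj, H2ap and H3f3 genes. The rule leaves out other histone genes such as Macroh2a1 and Cenpa. Of the 81, 64 carried the symbols of the multigene cluster families and are named clustered genes below. For H4c16, H2bc27 and H2ac25 this rests on the symbol in the deposited file alone, since the RefSeq table gives them other names (H4f16, H2bu2 and H2aw). The RefSeq table placed 51 of these on chromosome 13, 10 on chromosome 3, 2 on chromosome 11 and 1, H4c16, alone on chromosome 6. A further 8 were variant genes (H1f0, H1f10, H2ax, H2az1, H2az2, H2aj, H3f3a and H3f3b). The other 9 were germline genes (H1f6, H1f7, H1f8, H1f9, H2ac1, H2bc1 and H2ap), the antisense gene H3f3aos and the pseudogene H2bc26-ps.

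Core histones of the H2A, H2B, H3 and H4 families form the protein body of the nucleosome, and H1 linker histones bind the DNA between nucleosomes. Clustered genes are known for transcription during DNA replication, when new chromatin is packed. Their messages usually end in a stem-loop, bound by the protein Slbp, in place of a poly(A) tail. Variant genes lie outside the clusters, are mostly expressed throughout the cell cycle, and have messages with a poly(A) tail, while H2ax is known for both kinds of end. Some of their proteins replace the clustered ones at particular sites, such as H2A.Z at promoters.

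The library held cells of the mouse pancreatic cancer line KPCY 6419c5, which carried the BASELINE lineage-tracing system and the adenine base editor Cas12a-ABE. Clones 76 and 84, each grown from a single sorted cell, were mixed in equal numbers after 19 days of editing. A second pool, of clones 1, 32, 33, 52 and 76, was not analysed here. Cells could not be assigned to a clone, so they were placed by expression and are named A and B, which are not shown to be the clones. A cells had at least 2 UMIs (unique molecular identifiers, 1 per captured message) of Pde10a, Plcb1, Galnt18, Arhgap15 and Ceacam1, and at least 3 times as many as of the B genes. B cells met the same rule for S100a7a, Rgs20, Hs6st2, Ccbe1, Ctse and Mal.

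Of 22178 barcodes, 21361 passed the filter, 7816 of them as A cells and 8936 as B cells, and 4609 met neither rule. A cells were shallower, with a median of 4700 against 5440 UMIs, and their median mitochondrial share was 3.19% against 1.89%. The 6 epithelial markers summed to 2737 CPM (UMIs per 1000000 UMIs of the group) in A cells and 7578 CPM in B cells. Of the marker lists of other cell types, the endothelial list was the highest in A cells at 33.5 CPM, against 8.55 CPM in B cells, and Egfl7 led it. The immune, fibroblast, erythroid, acinar and endocrine lists lay between 0.0497 and 13.7 CPM in both, with 2 of 7 immune and 3 of 6 fibroblast markers at 0. The part of these differences in the results below was not tested. There was 1 library and no replicate, so no comparison has a test. All intervals are exact at 95% and cover counting error only, and a member was called where it differed by at least 2-fold and its mean level over both sides was at least 5 CPM.

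The 3′ end decides which histone messages a library primed on poly(A) can hold, so stem-loops are shown first. All 81 members had a transcript in GENCODE M21, and the longest was read for each, a coding one where the gene had one. A stem-loop was found in 46 of them, among these H2ax as the only variant, against 0.0954% of 58700 coding transcripts of other genes. In 44 it had at least 5 bases on each side, and in 24 of these the stem-loop read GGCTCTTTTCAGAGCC. The lines below give it in capitals with 5 bases on each side, for the member that differed most between A and B (H2ac8), for H1f4, H3c3 and H4c16, and for the variant H2ax.
H2ac8: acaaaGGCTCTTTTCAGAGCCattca
H1f4: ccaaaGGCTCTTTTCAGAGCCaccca
H3c3: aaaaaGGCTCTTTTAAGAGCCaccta
H4c16: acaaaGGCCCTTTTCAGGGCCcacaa
H2ax: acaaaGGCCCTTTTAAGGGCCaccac

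No stem-loop was found in the transcripts of H1f5, H1f1 and H2bc4, of 743, 741 and 1156 bases. An annotated transcript can end before its stem-loop, so this says only that the letters were not in it. The transcript of H2ac8 ran 151 bases past its stem-loop and had a poly(A) signal, AATAAA or ATTAAA, in its last 50 bases. Such a signal stood in the transcript read for 16 of 64 clustered genes and for 7 of 8 variants, against 50.24% of the other coding transcripts. Among clustered genes with a stem-loop, 12 of the 22 with over 100 bases after it reached the minimum level, and 7 of the 22 with at most 100 did. The longest run of A, at which a poly(A) primer can bind inside a message, was 15 bases in H2ac6 and 12 in H2ac24, H2ac23 and H3f3b. Which form of each message was captured was not tested.

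Promoter sequence came from RefSeq on GRCm38.p6, where 73 members had an entry of 250 bases before and 50 after the start. The deposited counts used another build, so these positions serve the sequences only. CCAAT, the box bound by the factor NF-Y, stood on either strand in 50 of 59 clustered promoters (84.7%) and in 37.41% of all 32851 promoters. It stood in all 47 clustered promoters of the H1, H2A, H2B and H3 families and in 3 of 12 of the H4 family. TATAAA stood in 33 of 59 (55.93%) against 13.62%. ATTTGCAT, the octamer bound by Oct factors, stood in 11 of 59, all of the H2A and H2B families, against 1.74% of all promoters. AAACACA, a box of linker histone promoters, stood in 4 of 5 clustered H1 promoters and in 7.18% of all. H2A and H2B genes transcribed away from each other from close starts share part of these stretches, so their matches are not separate counts. A match is a description of letters and was not read as a bound site.

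The upstream sequences below are 150 bases long, or 179 for H2ac8, and end just before the start, with those motifs in capitals. They are the 3 called chromosome 13 genes H2ac8 (chr13:23571221-23571399, minus strand), H3c3 (chr13:23745522-23745671, minus strand) and H1f5 (chr13:21780626-21780775, minus strand). H1f1 (chr13:23763518-23763667, plus strand) had the highest mean ratio of A and B cells along the replication genes, and H2az1 (chr3:137864337-137864486, plus strand) is the variant with the most UMIs. The H2ac8 stretch fills the space between its start and that of H2bc8, which is transcribed the other way, and its TATAAA and octamer match on the H2bc8 strand. The H3c3 stretch holds 4 copies of CCAAT.
H2ac8: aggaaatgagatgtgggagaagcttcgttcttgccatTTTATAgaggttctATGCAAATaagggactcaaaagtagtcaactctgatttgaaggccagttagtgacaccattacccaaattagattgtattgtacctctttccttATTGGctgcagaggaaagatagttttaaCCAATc
H3c3: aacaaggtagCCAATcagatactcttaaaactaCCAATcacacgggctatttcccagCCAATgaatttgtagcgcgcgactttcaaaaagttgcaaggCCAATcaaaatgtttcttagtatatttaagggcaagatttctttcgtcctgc
H1f5: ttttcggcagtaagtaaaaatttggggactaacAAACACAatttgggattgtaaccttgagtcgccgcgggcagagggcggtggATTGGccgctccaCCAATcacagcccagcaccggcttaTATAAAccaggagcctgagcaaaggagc
H1f1: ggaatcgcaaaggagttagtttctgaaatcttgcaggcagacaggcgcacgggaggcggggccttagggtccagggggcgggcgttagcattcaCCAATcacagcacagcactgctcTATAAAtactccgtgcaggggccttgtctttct
H2az1: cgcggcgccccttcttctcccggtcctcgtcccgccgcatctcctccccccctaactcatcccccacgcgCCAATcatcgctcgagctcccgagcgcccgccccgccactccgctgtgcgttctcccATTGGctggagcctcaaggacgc

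The summed clustered genes had 2039 CPM (2025 to 2053) in A cells and 1246 CPM (1237 to 1256) in B cells. That is 1.64 times as much in A cells (1.62 to 1.65). The variant sum differed little, with 5742 CPM in A cells and 5364 CPM in B cells, a ratio of 1.07. Over all 9715 features tested the median ratio of A over B was 1.13, a shift of 0.17 on the log2 scale. Relative to that shift the clustered ratio was 1.45, and the variant ratio turned below 1, to 0.948. All 26 clustered members tested had a ratio above 1, as did 63.1% of all features, and 24 of them lay above the median of all features. Of the 26, H2bc15 and H2ac6 reached the minimum mean only through A cells.

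Of 33 members tested, 4 were called higher in A cells and 0 in B cells, where 10.2% and 6.97% of all features were called. The share of members called in A cells, 4 of 33, was near the background. H2ac8 (ENSMUSG00000069272), which codes for an H2A protein, had 52.0 CPM (49.8 to 54.3) in A cells and 7.28 CPM (6.57 to 8.04) in B cells. Its ratio of 7.15 (6.41 to 7.99) was the highest of the 33. H3c3 (ENSMUSG00000069310), an H3 gene, had 71.3 CPM in A cells and 27.0 CPM in B cells, a ratio of 2.64 (2.48 to 2.82). H4c16 (ENSMUSG00000096010), the H4 gene outside the clusters, had 14.6 and 5.55 CPM, a ratio of 2.625 (2.28 to 3.03). H1f5 (ENSMUSG00000058773), a linker histone gene, had 634 CPM (626 to 642) and 290.3 CPM (286 to 295), a ratio of 2.18. Relative to the median of all features its ratio was 1.93, and with equal weights of the replication ranges described below 1.97, and either ends its call. H1f5 thus had the largest absolute difference of these. Without H2ac8, H3c3 and H1f5 the clustered sum was 1282 CPM in A cells and 922 CPM in B cells, a ratio of 1.39.

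The other clustered members tested were above 1 by less than 2-fold. H2bc6 was the nearest below the threshold, with 21.7 and 11.2 CPM and a ratio of 1.94. The lowest were H2ac18 at 1.12, H2bc11 at 1.13 and H2ac4 at 1.15, and the first 2 had intervals that reached below 1. H1f4, the linker histone gene with the second most clustered UMIs, had 301.5 and 243 CPM, a ratio of 1.24. H2ac20 had 219 and 162 CPM. By family the ratio of the sums was 1.66 for H1, 1.53 for H2A, 1.495 for H2B, 2.155 for H3 and 1.55 for H4. H1f5 alone made up much of the H1 sum, which was 1157 CPM in A cells and 696 CPM in B cells.

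The variants split. H2az1, a gene for H2A.Z, had 3031 CPM in A cells and 3098 CPM in B cells, a ratio of 0.978. H3f3a had 719.5 and 756.5 CPM, a ratio of 0.951. Both stood slightly lower in A cells, though the H2az1 ratio was 1.01 under a strict cell filter. Its companion H3f3b, which codes for the same H3 variant protein, had 1434 and 1101 CPM, a ratio of 1.30. H2az2, the other H2A.Z gene, had 172 CPM (168 to 176) and 90.8 CPM (88.3 to 93.5), a ratio of 1.90 (1.83 to 1.97). H2ax, for H2A.X, had 74.7 and 44.8 CPM, a ratio of 1.67. H1f0, the linker variant of resting cells, had 162 and 143 CPM, and H2aj 148 and 131 CPM, both a ratio of 1.13. H1f10 had 21 UMIs in A cells and 4 in B cells.

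**Figure D1:**
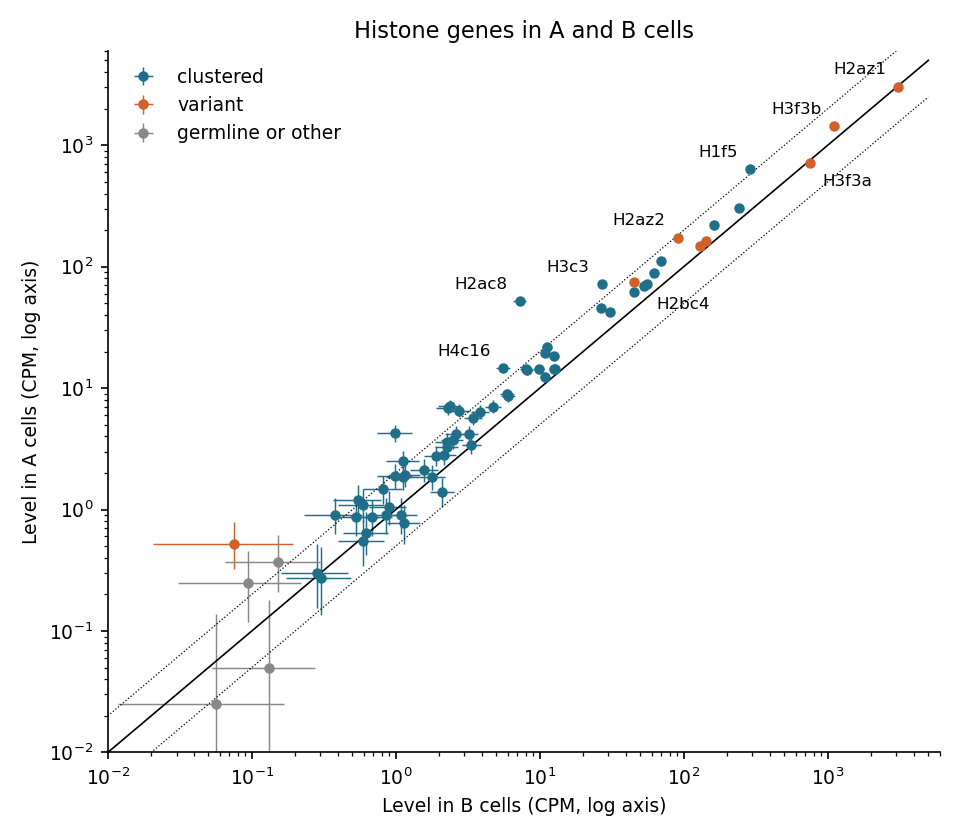
Level of each histone gene in A cells (vertical, CPM, log axis) against B cells (horizontal, CPM, log axis), for genes with a UMI in both; bars are exact 95% counting intervals, the solid line marks equal levels and the dotted lines 2-fold. Clustered genes (blue) lie mostly above the line, with H2ac8 farthest at 52.0 against 7.28 CPM, and H2az1 lies on it at 3031 against 3098 CPM.

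The remaining 48 members did not reach a mean of 5 CPM. H2ac19, H2bc23, H2bc1 and H1f7 had no UMI in either group. A count of 0 allows up to 0.0916 CPM in A cells and 0.0699 CPM in B cells. The 9 germline and other members had 30 UMIs in A cells and 49 in B cells together, of which H1f8 had 0 and 23. Among clustered genes just under the minimum, H3c14 had 7.15 and 2.37 CPM, H2bc9 6.80 and 2.29 CPM, and H3c7 6.51 and 2.77 CPM. H2bc27 had 4.25 and 0.985 CPM and H2ac25 2.51 and 1.12 CPM. These 5 stood more than 2-fold higher in A cells but lay under the minimum. Just inside the minimum were H2bc15 and H2ac6, with means of 5.13 and 5.90 CPM. H2bc21 went the other way, with 1.39 and 2.10 CPM. Many of these counts, and those of some tested members, are uncertain. Over 50% of the 50-base words of 30 members occur in another member, and counting may discard or split such reads. The tested members H2ac18 (89.2%), H3c11 (87.6%), H2bc11 (59.4%), H2ac4 (58.0%) and H2ac15 (52.3%) are among the 30. In the last 300 bases H2ac18 matched H2ac19, H2bc23 matched H2bc24, and H3c6 matched H3c7 at every such word, and the annotated end of H1f4 lies inside H2bc6.

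Gene order on chromosome 13 showed no run of genes with the H2ac8 ratio. Its neighbours H3c6 and H2bc8 had ratios of 1.795 and 1.30. Of 10 neighbouring pairs transcribed away from each other from starts within 1000 bases, H2ac8 and H2bc8 lay 180 bases apart. H2bc8 had 2.83 CPM in A cells and 2.18 CPM in B cells, and the interval of its ratio, 0.994 to 1.698, did not meet that of H2ac8. H2ac15 and H2bc15, the pair with both members tested, had ratios of 1.51 and 1.665, within each other's interval. The 22 tested genes of chromosome 13 had a median ratio of 1.47, and the 3 of chromosome 3 had 1.35.

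**Figure D2:**
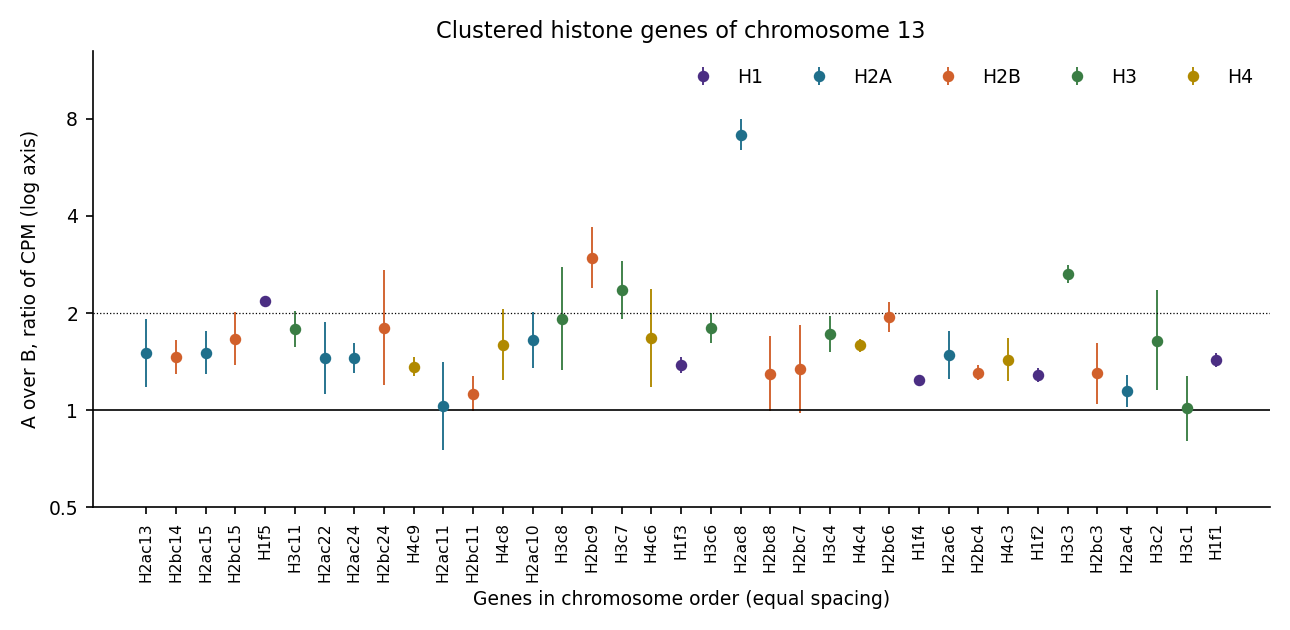
Ratio of the level in A cells over B cells (log axis, with exact 95% counting intervals) for the 37 clustered genes of chromosome 13 with at least 100 UMIs, in chromosome order at equal spacing and coloured by family. H2ac8 stands at 7.15 between H3c6 at 1.795 and H2bc8 at 1.30.

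The share of cells with a UMI gave the same order. After thinning each cell to 3000 UMIs, H2ac8 was seen in 14.3% of 7406 A cells (13.5 to 15.1%) and in 2.06% of 8827 B cells (1.78 to 2.38%). Without thinning the shares were 20.97% and 4.10%. H3c3 was seen in 17.85% and 6.84%, and H1f5 in 60.5% and 42.4%. A UMI of any clustered gene was seen in 85.5% of A cells and 78.4% of B cells, with a median of 5 and 3 per cell. For comparison H2az1 was seen in 99.5% and 99.8%. A type of cell known to lack these messages was not present to set a background.

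Cells were next ordered by 40 genes of the replication machinery, none of them a member, to ask which histone genes go with replication. The list does include Slbp, which binds the stem-loop of clustered messages. UMIs of that list were counted in cells thinned to 3000 UMIs, and the 10% of cells with the most were compared with the 10% with the fewest, both widened by ties. These were 816 and 1096 A cells, with medians of 4232 and 4810 UMIs, and 1150 and 1067 B cells, with medians of 5024 and 5722 UMIs. From lowest to highest the clustered sum went from 873 to 2904 CPM in A cells, 3.33 times as much (3.22 to 3.44). In B cells it went from 580 to 1692 CPM, 2.92 times as much (2.81 to 3.03). The variant sum went from 5030 to 5902 CPM in A cells and from 4848 to 5299 CPM in B cells, ratios of 1.17 and 1.09. The median of all features was 0.988 in A cells and 1.01 in B cells.

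In A cells 24 of 36 members tested were called higher in the highest range, where 2.68% of all features were. In B cells 17 of 30 were called, where 1.96% were. No member was called lower in either, where 1.9% of features in A cells and 0.549% in B cells were. All 24 and all 17 were clustered genes. Of the 24, 9 reached the minimum mean only through the highest range, as did 8 of the 17, so the filter favoured their calls, and 15 and 9 had at least 5 CPM in both ranges. The 17 were all among the 24 (70.8% of them and 100% of the 17). Of the other 7, 5 did not reach the minimum in B cells and were not tested there. H1f1, a linker histone gene, went from 25.4 to 150.4 CPM in A cells, a ratio of 5.92 (4.93 to 7.17), and from 15.4 to 104 CPM in B cells, a ratio of 6.73 (5.44 to 8.39). H1f5 went from 225 to 996 CPM and from 90.6 to 452 CPM, ratios of 4.43 and 4.99. H3c11 had ratios of 4.09 and 6.33, on 14.3 and 8.05 CPM over all A and B cells, so their intervals were wide. H4c16 went from 4.79 to 29.7 CPM in A cells and from 3.39 to 8.10 CPM in B cells, ratios of 6.19 (4.04 to 9.80) and 2.385 (1.42 to 4.13). H2bc14 had ratios of 5.25 and 3.23, H2ac18 of 3.85 and 5.10, and H2ac15 of 4.66 and, under the minimum level in B cells, 3.72. Of these core genes, only H3c11 in A cells had 5 CPM in both ranges. Core genes well above the minimum in both ranges were H2ac20, with 86.8 and 295 CPM in A cells and 67.9 and 214 CPM in B cells, and H3c3, with 28.2 and 98.1 CPM and 10.03 and 33.65 CPM.

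H2ac8 was higher in every replication range of A cells than in any of B cells. In A cells H2ac8 went from 17.4 CPM in the lowest range to 75.5 CPM in the highest, and in B cells from 2.93 to 9.68 CPM. Over a division of all cells into 10 ranges, A cells had 17.4 to 84.8 CPM and B cells 2.93 to 10.6 CPM. With A and B cells given the same weights over these ranges, the clustered ratio of A over B was 1.51 in place of 1.64. The replication list itself had 3313 CPM in A cells and 2773 CPM in B cells. Its gene Cdca7, a helicase cofactor that the cell cycle regulates, had 70.4 and 21.3 CPM, and no other of its 40 genes differed by 2-fold.

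Not all clustered genes followed the list. H2bc4 (ENSMUSG00000018102), an H2B gene, stood lower in the highest range, with 76.4 CPM in the lowest and 59.1 CPM in the highest range of A cells, a ratio of 0.774 (0.656 to 0.911). In B cells it had 85.0 and 43.97 CPM, a ratio of 0.517 (0.446 to 0.599), just short of the 2-fold threshold. With every second gene of the list the A cell ratio was 1.03. H3c4, H2bc6 and H2ac6 were above 1 but not called in either group, with ratios from 1.29 to 1.90. H1f2 and H4c9 were called in A cells, at 2.155 and 2.25, and not in B cells, at 1.43 and 1.46, and the difference between the groups was not tested. The 5 tested clustered genes with a poly(A) signal near an annotated end had median ratios of 2.25 in A cells and 1.46 in B cells. For the 21 without one the medians were 3.43 and 3.44. The 5 were split in A cells, where H4c16 and H2ac8 lay above 3.43 and H2bc6, H1f2 and H4c9 below it. In B cells all 5 lay below 3.44.

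None of the 7 tested variants was called along the replication list. H3f3b had the highest ratios, 1.42 in A cells (1137 to 1610 CPM) and 1.49 in B cells (825 to 1230 CPM). H3f3a, for the same protein, had 0.912 and 0.980. H2az1 had 1.20 and 1.02, and H2ax 1.33 and 1.01. H1f0, H2aj and H2az2 lay between 0.804 and 1.07. The intervals of these 7 variants did not meet those of H1f1 and H1f5 in either group, while H1f10 had too few UMIs to compare. H1f1 was named for its highest ratio and H1f5 lay near the top, so their separation followed from the choice. The classes as a whole overlapped. H2bc4 lay below all 7 variants in both groups, and H1f2 and H4c9 lay below H3f3b in B cells.

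**Figure D3:**
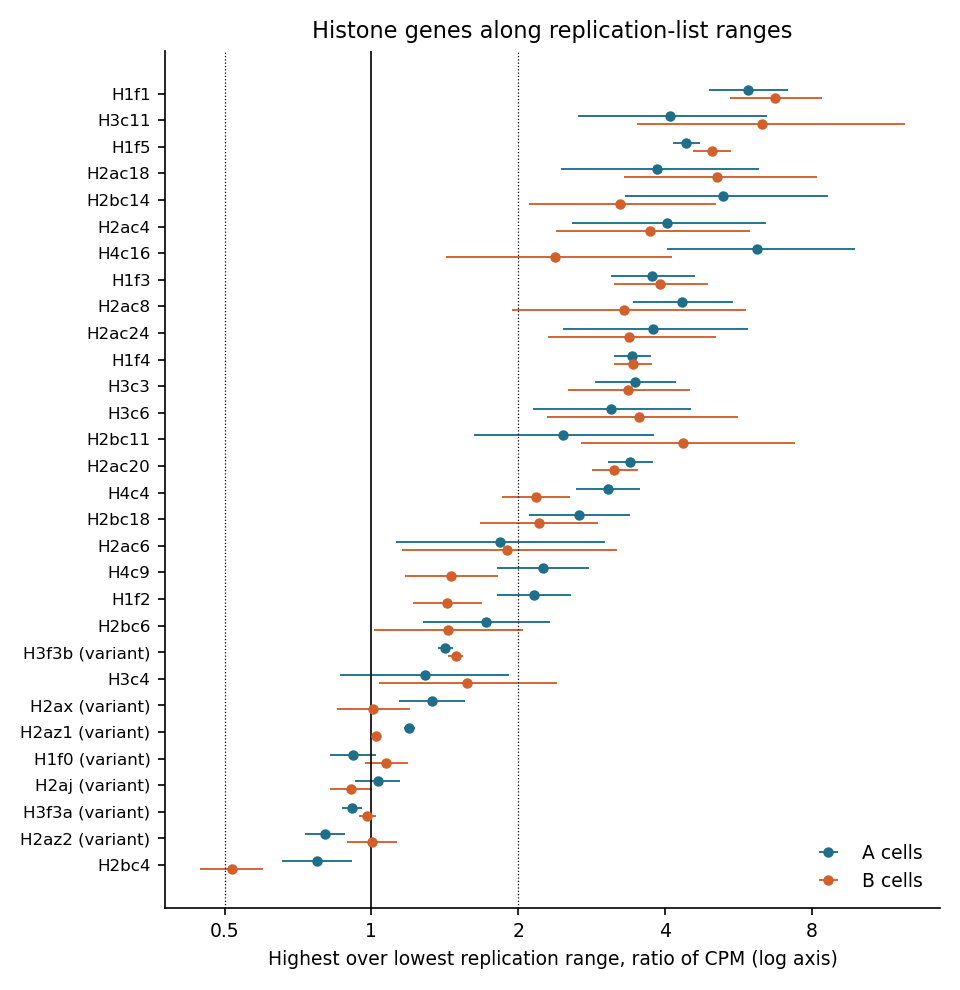
Ratio of the level in the highest over the lowest replication range (horizontal, log axis, with exact 95% counting intervals) for the members tested in both A cells (blue) and B cells (orange), sorted by the mean. H1f1 is at the top with 5.92 and 6.73, the variants lie between 0.804 and 1.49, and H2bc4 is at the bottom with 0.774 and 0.517.

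Cells were also ordered by a mitosis list of 30 genes, such as Ccnb1, Cdc20, Plk1, Cenpa and Top2a. The clustered sum was highest in the middle of this order. In A cells it was 656 CPM in the lowest of 10 ranges, 2804 CPM in the fifth and 1572 CPM in the highest. In B cells it was 585 CPM in the lowest, 1643 CPM in the fifth and 836 CPM in the highest. The 10% ends widened by ties, as above, went from 656 to 1601 CPM in A cells and from 585 to 861 CPM in B cells, ratios of 2.44 in A cells (2.34 to 2.55) and 1.47 in B cells (1.41 to 1.53). The cells of the lowest mitosis range were also shallower, with a median of 3964 UMIs against 5322 in A cells and 4786 against 6478 in B cells. In A cells they also had fewer replication-list UMIs after thinning, a median of 5 against 7 in the highest range. In B cells the median was 6 in both ranges.

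**Figure D4:**
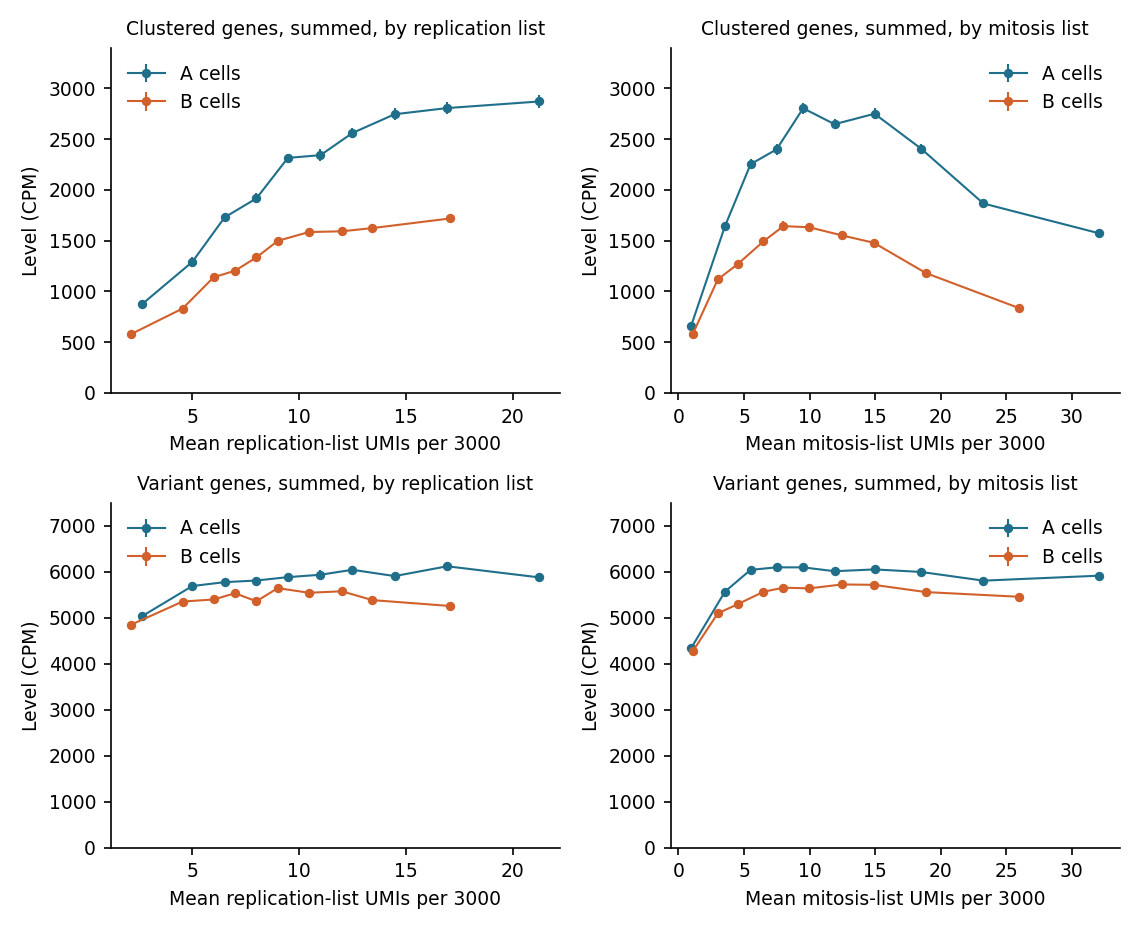
Summed level (CPM) of clustered genes (top) and variant genes (bottom) in 10 ranges of cells by UMIs of the replication list (left) or the mitosis list (right) per 3000 UMIs, in A cells (blue) and B cells (orange); bars are exact 95% counting intervals. Clustered genes are higher toward the right along the replication list and highest in the middle of the mitosis list, at 2804 CPM in A cells and 1643 CPM in B cells.

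In A cells 18 of 31 members tested were called higher in the highest mitosis range, where 3.18% of features were, and 0 lower, where 3.44% were. In B cells 5 of 25 were called higher, where 2.38% were, and 1 lower, where 1.32% were. The 5 were H1f0, H4c4, H3c3, H2bc18 and H2bc11, and each was among the 18. Of the 18, 8 reached the minimum mean only through the highest range, as did 1 of the 5. The mitosis ends of A cells also differed in the replication list, and those of B cells did not. Its part in the 18 calls against 5 was not tested. H1f0 (ENSMUSG00000096210) was not called along the replication list, where it had 117 CPM in the lowest, 157 CPM in the fourth and 123 CPM in the highest of the 10 ranges of B cells. Along the mitosis list it went from 96.4 to 237 CPM in A cells, a ratio of 2.46 (2.195 to 2.77), and from 56.5 to 189.5 CPM in B cells, a ratio of 3.35 (2.99 to 3.77). The median of all features was 0.952 in A cells and 0.967 in B cells. H2ax went from 29.7 to 110.5 CPM in A cells, a ratio of 3.72 (3.06 to 4.56), and from 29.9 to 57.5 CPM in B cells, a ratio of 1.92 (1.62 to 2.285). H2bc18 had ratios of 3.675 and 3.33, and H4c4 of 3.54 and 2.85.

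H2bc4 was the 1 member called lower, with 96.9 CPM in the lowest and 32.4 CPM in the highest mitosis range of B cells, a ratio of 0.334 (0.286 to 0.39). In A cells it had 69.2 and 57.0 CPM, a ratio of 0.823 (0.692 to 0.978). H1f1 and H1f3, high with the replication list, were not called along the mitosis list, with ratios of 1.70 and 1.36 for H1f1 and 1.71 and 1.25 for H1f3. H3f3a was flat, at 0.99 and 1.03, and H2az1 had 1.501 and 1.32.

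Inside A and B the members were compared between cells with genes that earlier results of these data had named. Among A cells, 2478 had Tnc, Acta2 and Ptchd4 over Epcam, S100g and Tm4sf20, named the Tnc range, and 1142 had the reverse, named the Epcam range. The clustered sum was 2177 CPM in the Tnc range and 1624 CPM in the Epcam range, a ratio of 1.34. The Tnc range also had more replication UMIs per 3000, a median of 10 against 7, and a median of 5156 against 4507 UMIs. The order differed between cells with fewer and with more UMIs of the replication and mitosis lists, a split made after the values were seen. Whether both ranges had equal list levels within each side was not tested. Among cells at or under the median of both lists together, the levels were 2070 and 1004 CPM, a ratio of 2.06 (1.98 to 2.145). Among cells over it they were 2323 and 2593 CPM, a ratio of 0.896 (0.869 to 0.923). H2ac8 followed, with 53.55 and 23.3 CPM below the median and 61.8 and 79.2 CPM above it.

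Of the clustered genes tested 27 of 30 had a ratio above 1, of which 3 reached the minimum mean only through the Tnc range, and the median over all features was 0.98. Of 37 members tested there, 0 were called higher in the Tnc range, where 0.955% of features were, and 1 lower, where 3.57% were. It was H2az2 (ENSMUSG00000041126), with 128 CPM in the Tnc range and 295 CPM in the Epcam range, a ratio of 0.433 (0.404 to 0.463). This difference had the same direction on both sides of the cycle median, with ratios of 0.421 and 0.447. H2az1, for the other H2A.Z protein, went the other way, with 3198 and 2554 CPM, a ratio of 1.25. H1f0 had 141 and 197.5 CPM, a ratio of 0.714, and H3f3a 679 and 830.5 CPM, a ratio of 0.817.

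Among B cells, 835 had Krt14, Sprr1a and Ccbe1 over Areg, Btc and Cftr, and 3737 had the reverse. The clustered sum was 1017 CPM in the Krt14 range and 1305 CPM in the Areg range, a ratio of 0.779. H2bc4 went against it, with 109 CPM in the Krt14 range and 39.4 CPM in the Areg range, a ratio of 2.77 (2.485 to 3.08). It was the 1 of 31 members called higher, where 1.5% of features were, and 0 were called lower, where 0.127% were. The Krt14 range had fewer mitosis UMIs per 3000, a median of 6 against 9. At or under the cycle median H2bc4 had 138 and 45.4 CPM, a ratio of 3.05 (2.66 to 3.49), and over it 64.8 and 34.7 CPM, a ratio of 1.87 (1.53 to 2.27). Of the clustered genes tested 4 of 24 had a ratio above 1, with a median of 0.71 against 1.01 over all features. H1f5 had 210 and 314 CPM and H1f4 168 and 264 CPM, ratios of 0.669 and 0.634.

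Cdkn1a codes for an inhibitor of cyclin-dependent kinases, and 583 B cells had a UMI of it after thinning. The clustered sum was 1199 CPM in these and 1253 CPM in the 8244 without. Of 32 members tested 0 were called, where 0.128% of features were higher and 0.0957% lower. H2bc4 had 83.9 and 50.4 CPM, a ratio of 1.665 (1.47 to 1.88), and the variant sum 5454 and 5362 CPM.

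**Figure D5:**
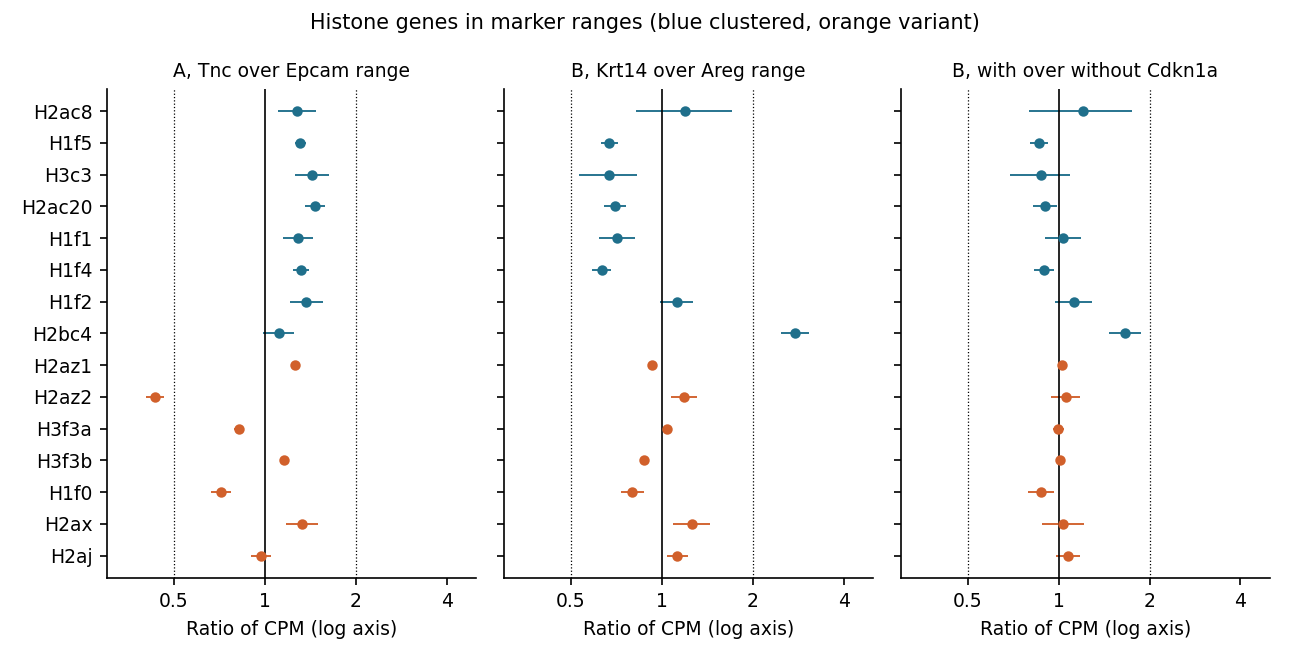
Ratio of levels (horizontal, log axis, with exact 95% counting intervals) of 15 members between marker ranges of A cells (left), marker ranges of B cells (middle) and B cells with or without a Cdkn1a UMI (right); clustered genes are blue and variants orange. H2az2 stands at 0.433 on the left and H2bc4 at 2.77 in the middle.

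Genes that make or carry histones were read against all features, of which 10.2% were called higher in A cells and 6.97% in B cells, with a median ratio of 1.13. Whether these lists differ from the clustered genes was not tested. Of 31 tested genes for stem-loop processing and histone gene transcription 0 were called, with a median ratio of 1.08. Slbp, which binds the stem-loop, had 84.7 and 79.6 CPM, and Npat, which switches on the clusters, 30.5 CPM in both. Ccne1, the cyclin that acts on Npat through Cdk2, was the highest at 51.0 and 26.8 CPM, a ratio of 1.90. The most abundant of the list, Yy1 and Srrt, had 159 and 169 CPM and 142 and 115.5 CPM. Of 35 histone chaperones and carriers 0 were called, with a median of 1.20, led by Ptma at 5500 and 4671 CPM and Npm1 at 3747 and 4476 CPM. Of 16 cleavage and polyadenylation factors 0 were called, with a median of 0.992, led by Pabpc1 at 736 and 1121 CPM. Of 8 other chromatin genes tested 0 were called, led by Hmgb2 at 1448 and 888 CPM and Hmgb1 at 1445 and 1434 CPM. Of the replication list the most abundant, Rrm2 and Rfc4, had 209 and 259 CPM and 209.6 and 180.1 CPM. Of 30 mitosis genes, led by Top2a at 661 and 603 CPM and Ube2c at 378 and 258 CPM, Bub1b and Ckap2 were called higher in A cells at 2.18 and 2.075.

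Along the replication list, genes that had ranked the cells are left out of these counts, and 2.68% of all features were called higher in A cells and 1.96% in B cells. Of the 28 remaining stem-loop list genes 5 were called higher in A cells (Lsm11, Casp8ap2, Eri1, E2f1 and Cdk2) and 3 in B cells. Casp8ap2, a partner of Npat, went from 30.0 to 92.4 CPM in A cells and from 35.8 to 78.1 CPM in B cells. Of the 32 remaining chaperones 4 were called in each group, and they were Asf1b, Nasp, Hat1 and Tonsl. Nasp, which holds free H3 and H4, went from 105.5 to 277 CPM in A cells and from 110 to 229 CPM in B cells. Of the 16 polyadenylation factors 1 was called in A cells and 0 in B cells. Along the mitosis list, genes of either ranking list are left out unless stated. Hjurp, the chaperone of the centromere variant Cenpa, was called higher in each group, 1 of 32 chaperones. So was Hmgb2, 1 of 7 other chromatin genes. With the replication-list genes kept, 2 of 35 chaperones were called lower in A cells (Chaf1b and Mcm2) and 1 in B cells (Chaf1b). Pou2f1, 1 of 28, and Cstf1, 1 of 16, were called higher in A cells. E2f1, 1 of the same 28, was called lower in both, with 15.2 and 6.51 CPM in A cells and 14.01 and 5.33 CPM in B cells. With the replication-list genes kept, 4 of 31 stem-loop list genes were called lower in A cells and 3 in B cells. Besides E2f1 these were Ccne1 and Ccne2 in both groups and Slbp in A cells, from 81.6 to 38.8 CPM. Over all features 3.18% were called higher and 3.44% lower in A cells, and 2.38% and 1.32% in B cells.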

How the data were processed

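Gene expression was measured in 1 droplet library of pooled clones 76 and 84. The deposited matrix holds whole-number UMI counts per gene and barcode, with no normalization. It was made with Cell Ranger 8.0.1 on GRCm39, per the file headers and the submitters' processing notes, and the annotation is not given in the sources used here. UMIs are 3′ tags and were not divided by length.

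Cells were kept with at least 2000 UMIs, 1000 genes and at most 15% mitochondrial UMIs, which left a median of 4700 UMIs in A cells and 5440 in B cells. No doublet caller was run; the marker rule leaves out barcodes with many UMIs of both groups. Counts were summed per group and scaled to CPM. Sums have exact Poisson intervals, shares Clopper-Pearson intervals and ratios conditional binomial intervals, at 95%. Cells are not replicates, so no p-value was computed. Thinning drew 3000 UMIs per cell (seed 1) and left out 410 A and 109 B cells. Python 3.11.15, numpy 2.4.6 and scipy 1.17.1 were used, and the steps were tested on simulated data.

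Members named were the 12 with most UMIs, the 5 highest and 5 lowest A over B and replication ratios, and all variants; of each other list, the 2 most abundant genes and those past 2-fold. Other genes named, and the split at the cycle median, were picked once values had been seen. The members and lists were chosen with earlier results of these data known. Alternatives were other cell filters, marker rules, scalings, minimum levels, depths and ranges. Sequences came from RefSeq (GRCm38.p6) and GENCODE M21; 80 of 81 members matched RefSeq, 74 by symbol and the rest by an older symbol.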

Additional observations from a re-analysis of the deposited data

Results flagged for a closer look

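The 4609 cells that passed the filter but met neither marker rule entered no comparison of A and B. They held clustered histone UMIs at 1453 CPM (1438 to 1469), between the 1246 CPM of B cells and the 2039 CPM of A cells, and H2ac8 at 29.1 CPM. Of them, 3824 had under 2 marker UMIs in all. The 817 barcodes that failed the filter held clustered histone UMIs at 713.8 CPM (661 to 770), with a median of 1087 UMIs per barcode and a median mitochondrial share of 11.1%. Both values stand out only because a signal lies above what a count of 0 allows in data that the comparisons left out.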

How the results depend on the processing

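Where a cause is not given, the cause was not tested. No paired analysis was possible because there was 1 library. For A over B the clustered ratio of 1.64 stayed above 1 under every alternative run. It was 1.68 under the strict marker rule, 1.45 centred on the median ratio, 1.66 without mitochondrial UMIs and 1.51 with equal weights of the replication ranges. The variant ratio of 1.07 was 1.08 under the strict cell filter, 1.085 without mitochondrial UMIs, 1.06 with equal weights and 0.948 when centred, which turns it. H2az1 turned to 1.01 under the strict cell filter. The 4 members called became 7 under the strict marker rule, 9 at a minimum of 1 CPM, where more were tested, 6 under the strict cell filter and 5 with every cell weighted equally, where H2az2 reached 2.02. They became 3 when centred and with equal weights of the replication ranges, where H1f5 had 1.93 and 1.97, and 3 at a minimum of 20 CPM. Along the replication list the clustered ratios of 3.33 and 2.92 became 3.78 and 3.125 with 5000 UMIs, 2.82 and 2.29 with ranges of 20%, 2.48 and 2.18 with every second gene, and 3.18 and 2.71 under the strict cell filter. The variant ratios of 1.17 and 1.09 became 1.14 and 1.05 with ranges of 20% and 1.12 and 1.04 with every second gene, and 1.125 in A cells under the strict filter. H2bc4 turned to 1.03 in A cells with every second gene. The members called, 24 and 17, became 11 and 7 at a minimum of 20 CPM, where fewer were tested. H2ac8 was seen in 20.97% and 4.10% of cells without thinning and in 19.3% and 3.88% at 5000 UMIs. In the marker ranges the clustered ratios of 1.34 and 0.779 became 1.705 and 0.665 under the strict marker rule. At or under the cycle median, a choice made after seeing the data, the first was 2.06, and over it they were 0.896, which turns it, and 0.856; H2ac8 turned to 0.78 there. Of 80 values of the sums, counts and shares under alternatives, 46 stayed, 32 moved and 2 turned. Of 216 values of single members, 153 stayed within their counting interval, 60 moved and 3 turned. Spread between cultures cannot be seen in a single library.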
